A study of Homo sapiens with 8 samples.

Results

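The levels of 174 zinc finger genes, each named ZNF plus a number, were compared between 2 sorted populations of each of 4 human lung cancer lines, the side population (SP) and the main population (MP), and between the lines. SP cells expel the Hoechst dye, for which ABCG2 is a known pump, and MP cells retain it. A549, H460, H1650 and H1975 cells were stained with the dye, the viable cells were sorted into SP and MP, and no other treatment is given in the labels. A549 and H460 carry mutated K-Ras, and H1650 and H1975 carry mutated EGFR. Each sorted population of each line was hybridised to 1 Affymetrix U133 Plus 2.0 array, 8 arrays in all, so the lines are the replicates of SP against MP, and p-values measure the spread between these lines. The genes were chosen by a measured value, the mean log2 signal over the 8 arrays. The array holds 891 probe sets for 425 ZNF genes. The probe set with the highest mean stood for its gene, and the 174 genes with a mean of at least 8 were kept. ZNF784 (8.05) and ZNF579 (8.003) lay just inside this limit, and ZNF566 (7.99) and ZNF397 (7.98) just outside. The mean levels of the 174 genes ran from 8.003 to 12.43 with a median of 9.02, and the highest were those of ZNF706, ZNF207, ZNF664, ZNF146 and ZNF121. The selection used no difference between populations or lines, but a gene that was low in 1 line had to be high in the others to be kept. Some genes reached the limit only through 1 line, their mean over the other 3 being under 8, and had to be high there. These were 18 genes for H1975, 11 for H1650, 6 for A549 and 3 for H460.

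ZNF genes encode proteins with arrays of zinc fingers, short folds held by a zinc ion, most of which read DNA sequence. Many of these proteins also carry a KRAB domain, which brings in the corepressor TRIM28 and, through it, the histone methyltransferase SETDB1, and so silences transposable elements and genes. The family grew by duplication of neighbouring genes, and a large part of it lies in clusters on human chromosome 19. Of the genes studied here 67 lay on chromosome 19, 13 on chromosome 7, and 12 each on chromosomes 1 and 16.

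The arrays labelled SP did not behave alike. The log2 ratio of SP over MP for ABCG2 was -0.70 in H1650, against 1.08 for A549, 0.36 for H460 and 1.17 for H1975. The H1650 arrays thus ran against their labels for ABCG2, and 21 of 22 mitosis genes were likewise below 0 in this line, TOP2A among them at -1.43. Whether the SP and MP labels of H1650 were exchanged was not tested. Directions in H1650 rest on its labels, and the comparison of SP with MP is given with and without this line. The epithelial keratin genes KRT8 and KRT18 had log2 signals of at least 12.88 on each array, while EPCAM and CDH1 were low in H460, with highest signals of 5.97 and 1.61 in this line. Of the markers of other cell types, 6 were measured. The leukocyte genes PTPRC and CD3E were at most 4.72 and 6.43 on any array, and the endothelial genes PECAM1 and VWF at most 7.54 and 4.20. The collagen genes of fibroblasts were high in some lines, with COL1A1 at 8.85 to 13.00 and COL3A1 at up to 10.60 in H460. The log2 of the summed signal of these 6 genes lay between 10.02 and 13.05, highest in H1975, and SP and MP of a line were furthest apart in H1650, at 10.32 and 10.07. Their part in the levels of the ZNF genes was not tested.

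The sequences upstream of 6 of the genes are shown because the results below turn on them. ZNF92 and ZNF267 are 2 of the 3 genes that passed the test of SP against MP without H1650, and ZNF83, ZNF468, ZNF611 and ZNF765 are neighbours on chromosome 19 with unequal levels in A549. Each is the 200 bases before the first listed RefSeq start of the gene (GRCh38.p14), 5′ to 3′ on the strand of the gene. For ZNF92 (chr7:65373655-65373854, plus strand) and ZNF267 (chr16:31873607-31873806, plus strand) the capitals mark the longest stretch shared by both, which begins 25 bases before the start in ZNF92 and 35 bases before it in ZNF267, and a stretch of 10 bases that occurs 2 times in each.

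ZNF92: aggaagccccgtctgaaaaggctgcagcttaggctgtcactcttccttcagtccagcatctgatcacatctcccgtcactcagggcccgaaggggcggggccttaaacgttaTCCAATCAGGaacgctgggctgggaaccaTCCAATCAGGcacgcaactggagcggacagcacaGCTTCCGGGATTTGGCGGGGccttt
ZNF267: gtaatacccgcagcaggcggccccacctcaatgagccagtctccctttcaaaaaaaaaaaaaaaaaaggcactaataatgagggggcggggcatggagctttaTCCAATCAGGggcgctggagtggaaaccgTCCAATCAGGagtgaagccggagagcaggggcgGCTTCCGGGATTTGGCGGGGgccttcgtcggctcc

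The shared stretch of 20 bases was found in 6 of 27305 RefSeq promoters, searched on both strands over 250 bases before and 50 after the start, and in no other of the 151 members with a promoter entry. Over the 250 bases upstream the 2 genes were 56.3% identical, rank 22 of 11325 pairs of members, whose median identity was 46.3%. ZNF92 was closer to ZNF254 (77.5%), ZNF195 (62.5%) and ZNF627 (59.2%), none of which passed the test of SP against MP without H1650. The repeated stretch, which holds the CCAAT box, was found in 106 of the 27305 promoters (0.388%) and in 10 of the 151 members (6.62%). These members were ZNF92, ZNF267, ZNF791, ZNF627, ZNF443, ZNF195, ZNF101, ZNF57, ZNF254 and ZNF678. For ZNF83 (chr19:52690497-52690696), ZNF468 (chr19:52857620-52857819) and ZNF611 (chr19:52735045-52735244), all on the minus strand, and for ZNF765 (chr19:53394949-53395148, plus strand), the capitals mark the longest stretch of these windows shared by all 4.

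ZNF83: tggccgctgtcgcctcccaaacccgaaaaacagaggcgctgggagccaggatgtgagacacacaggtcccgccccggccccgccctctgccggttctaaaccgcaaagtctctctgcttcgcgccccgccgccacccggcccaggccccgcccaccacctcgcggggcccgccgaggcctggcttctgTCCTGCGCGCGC
ZNF468: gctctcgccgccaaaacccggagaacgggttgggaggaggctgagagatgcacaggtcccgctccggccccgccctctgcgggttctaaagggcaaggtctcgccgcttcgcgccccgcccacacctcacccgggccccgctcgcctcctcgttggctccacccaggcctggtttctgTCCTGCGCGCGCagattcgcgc
ZNF611: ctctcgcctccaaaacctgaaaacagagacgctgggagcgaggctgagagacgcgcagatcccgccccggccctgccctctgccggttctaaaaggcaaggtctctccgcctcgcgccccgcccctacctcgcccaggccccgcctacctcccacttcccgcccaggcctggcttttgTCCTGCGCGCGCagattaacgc
ZNF765: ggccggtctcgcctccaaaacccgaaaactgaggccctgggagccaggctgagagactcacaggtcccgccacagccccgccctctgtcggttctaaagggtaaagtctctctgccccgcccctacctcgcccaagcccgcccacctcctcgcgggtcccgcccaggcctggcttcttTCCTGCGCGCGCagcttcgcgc

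These 4 windows were 74.6% to 82.3% identical in pairs over 250 bases, and their shared stretch of 12 bases was found in 19 of the 27305 promoters and in no other member. Shorter motifs were searched on both strands of the same promoters. The ETS core CCGGAA was present in 52.3% of the members and 17.6% of all promoters, and the GC box GGGCGG in 68.9% and 44.6%. CCAAT was present in 41.7% and 35.7%, and the CRE TGACGTCA in 6.62% and 1.98%. The TATA box TATAAA was present in 1.99% of the members and 12% of all promoters. A match is a description of the letters in the window and not a binding site. The members were chosen by signal and the set of all promoters was not. No share was taken over the other genes with a mean of at least 8, so these differences are not shown to be particular to ZNF genes.

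Most of the ZNF genes were higher in SP in A549, H460 and H1975, and most were lower in the array labelled SP in H1650. The log2 ratio of SP over MP was above 0 for 135 of the 174 genes in A549 (77.6%), for 113 in H460 (64.9%) and for 109 in H1975 (62.6%), but for 63 in H1650 (36.2%). Among all 12312 genes tested the shares above 0 were 50.5%, 45.0%, 45.3% and 48.8%. The median log2 ratio of the ZNF genes was 0.33 for A549, 0.16 for H460, 0.09 for H1975 and -0.09 for H1650, and that of all genes tested lay between -0.04 and 0.00. With 1 array per population there is no test within a line, and these values are a description. In RNA from sorted populations, fewer cells that express a gene and less of its RNA per cell cannot be told apart.

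**Figure D1:**
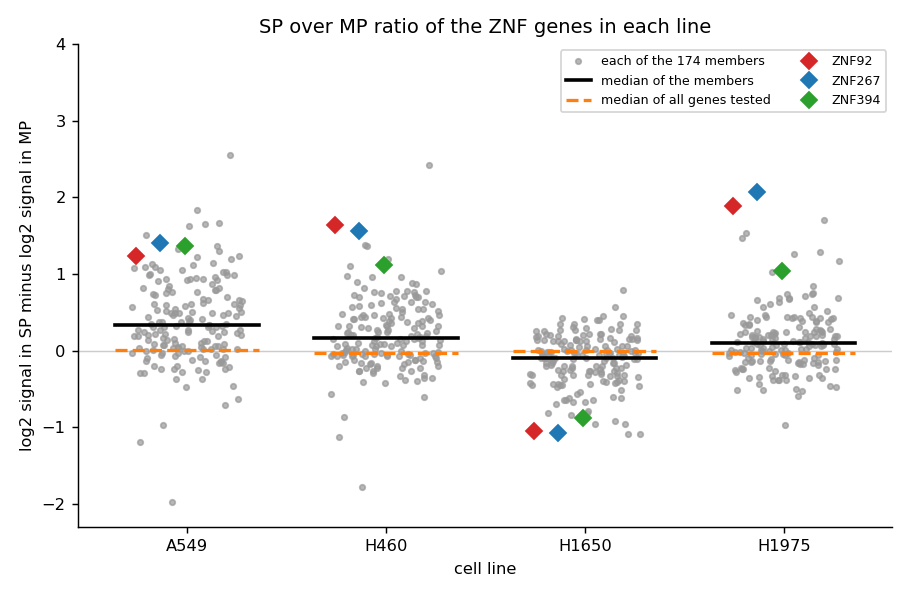
Log2 ratio of SP over MP (vertical axis) for each of the 174 ZNF genes (grey points, spread sideways only for legibility) in the 4 lines, with the median of these genes (black line) and of all 12312 genes tested (orange dashes). The black line is above the dashes in A549, H460 and H1975 and below them in H1650, and ZNF92, ZNF267 and ZNF394 (coloured) are among the highest genes in those 3 lines and among the lowest in H1650.

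Changes of at least 2-fold ran the same way. In A549, SP exceeded MP by 2-fold or more for 26 of the ZNF genes and fell short of it as much for 2, against 2.88% and 1.43% of all genes tested. In H460, 9 were higher and 2 lower (all genes, 1.98% and 1.42%). In H1975, 10 were higher and 0 lower (all genes, 1.78% and 2.36%). In H1650, 0 were higher and 4 lower (all genes, 1.03% and 2.01%). The gene with the highest ratio was ZNF567 in A549 (2.55) and H460 (2.42), ZNF267 in H1975 (2.07) and ZNF580 in H1650 (0.79). The lowest ratios were those of ZNF83 in A549 (-1.98), ZNF22 in H460 (-1.79), ZNF704 in H1975 (-0.97) and ZNF567 in H1650 (-1.09). ZNF83 in A549 and ZNF22 in H460 are ratios of dim signals, since each gene had a log2 signal under 5 on both arrays of that line. ZNF92, ZNF267 and ZNF394, 3 of the 174, reached this fold in A549, H460 and H1975 alike.

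One pattern of signs set H1650 apart. In all, 68 of the 174 ZNF genes (39.1%) were higher in SP in A549, H460 and H1975 and lower in H1650, against 13.5% of all genes tested and 15.1% of all genes with a mean of at least 8. A further 9 were higher in all 4 lines (5.17%; all genes tested, 3.27%), and 6 were lower in all 4 (3.45%; all genes, 6.48%). The dimmer ZNF genes, which the limit of 8 left out, had the pattern at about the same rate, 62 of the 150 that could be tested (41.3%). Of the related ZBTB, ZKSCAN, ZSCAN and ZFP genes with a mean of at least 8, 22 of 40 had it (55.0%). By chromosome, 28 of the 67 members on chromosome 19 (41.8%) and 40 of the 107 elsewhere (37.4%) had the pattern, as did 49 of the 689 other genes tested on chromosome 19 (7.11%). Where each array was scaled to the same median, 35.1% of the ZNF genes and 11.5% of all genes tested had it.

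**Figure D2:**
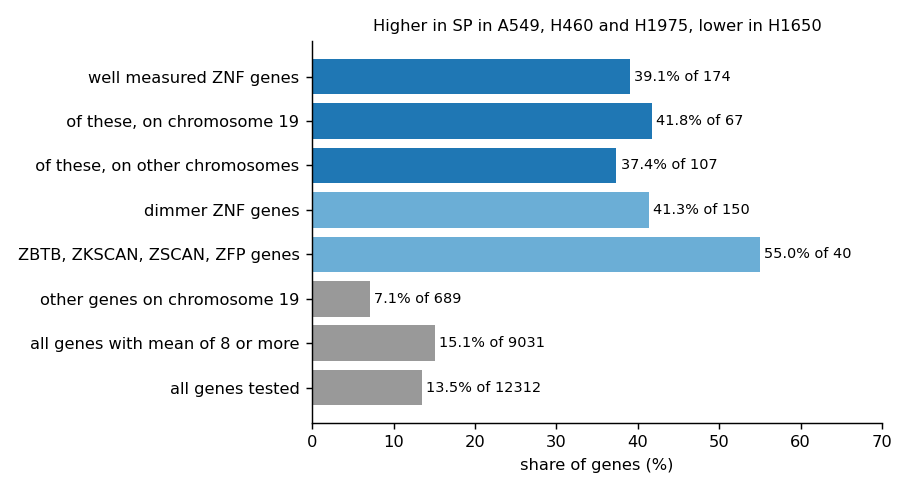
Share of genes in percent (bars, horizontal axis from 0) that were higher in SP in A549, H460 and H1975 and lower in H1650, by gene group, with the number of genes in each group. The ZNF genes and the other zinc finger genes (blue) lie between 37.4% and 55.0%, and all genes tested, the brighter genes and the other genes of chromosome 19 (grey) between 7.11% and 15.1%.

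Over 127 ZNF genes with a further probe set, the second brightest gave median ratios of 0.34 for A549, 0.12 for H460, 0.07 for H1975 and -0.02 for H1650. It had the sign of the brightest probe set for 90, 78, 71 and 83 of the 127 genes. The pattern was present in 38 of these second probe sets (29.9%), and in 34 of the 96 that reached the signal filter of 6.00 (35.4%). Of the 174 genes, 125 were read by a probe set without a suffix and 49 by one marked s, x or a, which can match several transcripts or related genes, and the pattern was present in 40.8% and 34.7% of them.

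The test of SP against MP was a limma fit with the cell line as a block, and its threshold was a Benjamini-Hochberg adjusted p under 0.05 over all 12312 genes tested. Over all 4 lines none of the ZNF genes passed, and neither did any other gene (0%). By unadjusted p under 0.05 the limma fit had 12 ZNF genes and 375 genes in all (3.05%). The member with the smallest p was ZNF420, a KRAB zinc finger gene, whose log2 ratios were 1.15 for A549, 0.88 for H460, 0.28 for H1650 and 0.19 for H1975, with a mean of 0.63 (SE 0.20, adjusted p = 0.945).

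Without H1650, 3 ZNF genes were higher in SP at the adjusted threshold, against 0.187% of all genes tested, and 0 were lower, against 0.0162%. Of the 174, 63 had an unadjusted p under 0.05 (36.2%), against 13.5% of all genes tested. ZNF92, a KRAB zinc finger gene on chromosome 7, had log2 signals of 9.88 in SP and 8.65 in MP of A549, 10.87 and 9.23 in H460, and 11.47 and 9.59 in H1975. In H1650 its signals were 9.10 in SP and 10.15 in MP. The 3 SP signals outside H1650 lay above the 3 MP signals, and the mean log2 ratio of these lines was 1.59 (SE 0.14, limma adjusted p = 0.0314).

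ZNF267, a KRAB zinc finger gene on chromosome 16, had signals of 9.14 in SP and 7.74 in MP of A549, 9.57 and 8.01 in H460, 10.29 and 8.21 in H1975, and 7.54 and 8.62 in H1650. Its mean log2 ratio over the 3 lines was 1.68 (SE 0.17, limma adjusted p = 0.0314), and again no SP signal of these lines overlapped an MP signal. ZNF394, which carries both a KRAB and a SCAN domain, had signals of 10.02 and 8.66 in A549, 9.87 and 8.76 in H460, 10.03 and 8.99 in H1975, and 8.44 and 9.31 in H1650. Its mean log2 ratio was 1.17 (SE 0.13, limma adjusted p = 0.0314), with SP above MP throughout the 3 lines. A second probe set of ZNF394, with a mean signal of 7.99, gave ratios of 0.10, -0.40, -0.27 and 0.09 in A549, H460, H1975 and H1650, so the change was seen by 1 of its 2 probe sets. For ZNF92 the second probe set, with a mean of 5.37, gave 0.76 over the 3 lines and did not pass (limma adjusted p = 0.435), and ZNF267 has 1 probe set.

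The number of calls changed when a further line was left out, among the ZNF genes and among all genes tested alike. Without H460 no ZNF gene passed and 6 genes in all did, in place of 25. The mean log2 ratios of ZNF92, ZNF267 and ZNF394 were then 1.56, 1.74 and 1.20, close to those over 3 lines, with adjusted p of 0.0940, 0.0981 and 0.0981. Without A549 only ZNF92 and 1 other gene passed, and without H1975 6 ZNF genes did, among them these 3, of 60 genes in all. When the cell line was left out as a block, 0 passed (limma, 91 genes in all with an unadjusted p under 0.05).

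**Figure D3:**
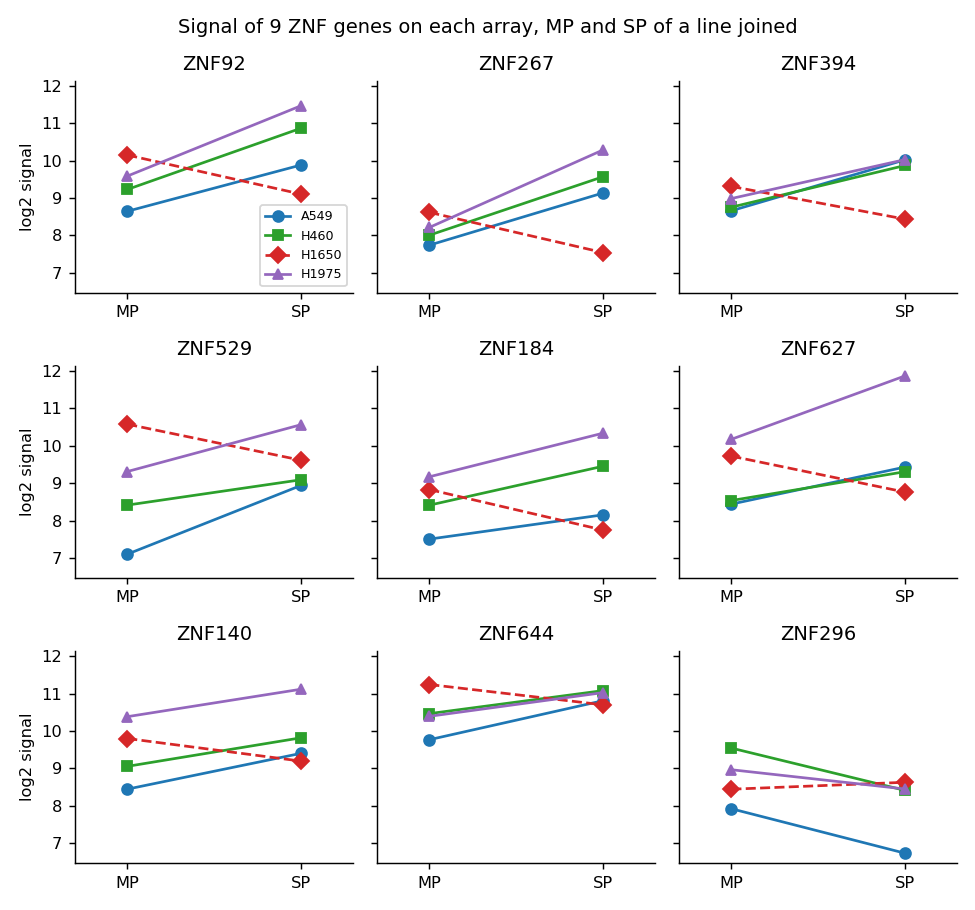
Log2 signal (vertical axis) of 9 ZNF genes on the MP and SP array of each line, joined by a line, with H1650 dashed. For the 8 genes with the smallest p among the higher ones, SP is above MP in A549, H460 and H1975 and below it in H1650, while for ZNF296, with the smallest p among the lower ones, SP is below MP in those 3 lines.

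The next genes in order of p had SP above MP throughout the 3 lines but did not pass. ZNF140, a KRAB repressor gene on chromosome 12, had ratios of 0.96 for A549, 0.76 for H460, 0.73 for H1975 and -0.61 for H1650 (mean of 3 lines 0.82, SE 0.12, limma adjusted p = 0.0608). ZNF644, whose protein is a partner of histone methyltransferases, had a mean of 0.76 (SE 0.12, adjusted p = 0.0718), and ZNF627 one of 1.15 (SE 0.19, adjusted p = 0.0749), for which the second probe set, with a mean signal of only 3.69, gave -0.10. ZNF184 had a mean of 0.95 (SE 0.16, adjusted p = 0.0781) and ZNF529 one of 1.26 (SE 0.22, adjusted p = 0.0832). The second probe set of ZNF529, with a mean signal of 5.77, gave ratios of 1.06, 0.08, -0.92 and -0.03 in A549, H460, H1975 and H1650. That of ZNF644, with a mean signal of 6.67, kept the signs, at 1.21, 0.12, 1.52 and -0.59 in the same order. ZNF567 had the highest mean, 1.83, but its ratios of 2.55, 2.42 and 0.52 in A549, H460 and H1975 spread widely (SE 0.37, adjusted p = 0.119). Its second probe set, with a mean signal of 7.07, gave 1.13, 1.38 and -0.36 in these lines and 0.49 in H1650, so H1975 and H1650 turned direction. ZNF207, whose protein binds microtubules and the checkpoint protein BUB3, hardly differed between the populations, with ratios of 0.02, 0.25, 0.09 and -0.04 in A549, H460, H1975 and H1650.

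None of the ZNF genes that were lower in SP passed, and 126 of the 174 had a mean above 0 over the 3 lines. Among the lower genes the smallest p belonged to ZNF296, with signals of 6.73 in SP and 7.92 in MP of A549, 8.41 and 9.54 in H460, 8.45 and 8.96 in H1975, and 8.63 and 8.44 in H1650. Its mean over the 3 lines was -0.95 (SE 0.19, limma adjusted p = 0.119). ZNF580 had a mean of -0.56 (SE 0.12, adjusted p = 0.131) and ZNF226 one of -0.43 (SE 0.11, adjusted p = 0.192). The second probe set of ZNF226, with a mean signal of 7.44, turned the direction, with ratios of 0.80 for A549, 0.57 for H460 and 0.14 for H1975 and a mean of 0.50. The other lower genes named by p were ZNF32, ZNF83, ZNF558, ZNF213 and ZNF511, with means from -0.79 to -0.17 and adjusted p of at least 0.376.

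The difference between H1650 and the other lines was fitted as an interaction. H1650 was set apart because earlier results of these data showed it to run against the other lines. The same 3 genes passed, all with a lower effect in H1650, against 0.26% of all genes tested. The SP effect in H1650 minus the mean of the other lines was -2.63 for ZNF92 (SE 0.29), -2.76 for ZNF267 (SE 0.36) and -2.05 for ZNF394 (SE 0.27), each with a limma adjusted p of 0.0454. H1650 has 1 pair of arrays, and its spread was taken to be that of the other lines. That spread is also the one behind the fit without H1650, so the same genes passing again adds no separate support. With the SP and MP labels of H1650 exchanged, 13 ZNF genes passed in the fit over 4 lines, in place of 0, of which 12 were higher (6.90% of the 174) and 1 lower. Among all genes tested 210 then passed (1.71%), 192 higher and 18 lower.

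The 10 members with the repeated CCAAT stretch upstream were all below 0 in H1650, from -1.08 for ZNF267 to -0.0003 for ZNF195, and 9 of the 10 were above 0 in the other 3 lines. The exception was ZNF254, at -0.03 in H460. Among all members 63.8% were below 0 in H1650. Above 0 in each of the other 3 lines were 44.3% of all members and 16.7% of all genes tested. The stretch was found in genes chosen for this change, so this count is a description. ZNF394 has no promoter entry.

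The genes of KRAB partner proteins had median ratios near 0, with single genes away from it. Of 23 corepressor and heterochromatin genes, none passed in either fit, 4 had an unadjusted p under 0.05 without H1650, and 3 had the sign pattern of the ZNF genes. Their median log2 ratios were -0.01 for A549, 0.01 for H460, 0.02 for H1650 and 0.02 for H1975. TRIM28 had ratios of 0.00, -0.03, 0.02 and 0.08 in the same order, and SETDB1 -0.08, 0.63, 0.26 and -0.21. Of the 23, 17 stayed within 0.5 of 0 in each line and 6 did not, among them DNMT3B, a DNA methyltransferase gene (0.88, 0.41, -0.54 and 0.52), and MORC3 (0.85, 0.51, -0.42 and 0.08). Mitosis genes had the same signs as most ZNF genes in the 4 lines. Of 22, 19 had the pattern, their medians were 0.66, 0.43, -0.66 and 0.92 in A549, H460, H1650 and H1975, and TTK, a spindle checkpoint kinase, passed without H1650 (0.90, SE 0.11, limma adjusted p = 0.0361). Of 19 immediate early genes, 2 had the pattern and none passed, with medians of -0.27, 0.22, -0.11 and 0.15. The log2 signal of the 3′ probe set of ACTB minus the 5′ one, a measure of RNA integrity, differed between SP and MP by -0.04, 0.07, -0.03 and -0.16. The part of cell cycle or RNA quality in the ratios of the ZNF genes was not tested.

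The ZNF genes also differed between the lines. The 2 arrays of a line are its SP and MP sorts, so the spread behind these tests is that between populations and not between cultures. In the limma fit of levels, 127 of the 174 ZNF genes differed between lines (73.0%), against 76.2% of all genes tested, a share near the background. The range of the line means was 0.22 to 8.07 on the log2 scale with a median of 1.19. It was at least 1 for 107 genes, at least 2 for 42 and at least 3 for 21. The direction was uneven. H1975 had the highest level of 85 genes and the lowest of 23, whereas A549 had the highest of 20 and the lowest of 65. H460 had 30 and 53, and H1650 39 and 33.

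Tested against the mean of the other 3 lines, 75 ZNF genes were higher in H1975 and 18 lower, against 28.1% and 23.8% of all genes tested. In A549 26 were higher and 57 lower, against 22.4% and 21.3%. In H460 27 were higher and 51 lower, against 24.1% and 26.8%. In H1650 42 were higher and 28 lower, against 25.1% and 25.8%. The median differences of the ZNF genes were 0.47 in H1975, 0.01 in H1650, -0.14 in H460 and -0.37 in A549, and those of all genes tested were 0.06, -0.01, -0.03 and 0.01. The counts in H460 and A549 depended on the scaling. With each array scaled to the same median, 41 ZNF genes were higher and 41 lower in H460 (all genes, 33.1% and 18.3%), and their median difference became 0.09 and that of all genes 0.20. In A549, 16 were then higher and 74 lower (all genes, 15.3% and 26.1%). Relative to the median of all genes the ZNF genes lay at -0.11 in H460, -0.38 in A549 and 0.41 in H1975. Scaling to the same median shifts both medians alike and cannot change these values. With quantile normalization they were -0.10, -0.35 and 0.38 in the same order. The 83 ZNF genes called in A549 became 40 without its MP array, while all genes called went from 5379 to 2915. The 78 called in H460 became 38 without either of its arrays, while all genes went from 6276 to 3655 without SP and 3520 without MP. Of the 75 ZNF genes higher in H1975, 17 were among those kept only through this line, as were 10 of the 42 in H1650.

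Some ZNF genes had very low signals in 1 line. No detection calls were at hand, so a low signal is not shown to be an absent transcript. ZNF83, a finger gene of the chromosome 19 cluster, had log2 signals of 2.09 and 4.08 on the SP and MP arrays of A549, 9.10 and 9.26 in H460, 10.54 and 10.48 in H1650, and 11.04 and 11.27 in H1975. Both arrays of A549 lay below all others, at signals too dim for an exact difference. With signals under 32 set to 32, which is 5 on the log2 scale, the log2 difference of A549 was -5.28, a bound on its size. The floor makes the 2 signals of A549 equal, so no p-value is given. With H1650 or H1975 left out, the mean of ZNF83 was under 8 (7.81 and 7.59). It thus had to be high in these lines to be kept, and its difference in A549 is a description. ZNF468 had signals of 5.30 and 4.93 in A549 and between 9.51 and 11.26 on the other arrays. Its difference was -5.35 (SE 0.19, limma adjusted p = 4.44e-06), and -5.31 with the same floor. ZNF320 was low in both A549 (6.37 and 6.75) and H460 (7.58 and 6.62) and lay between 10.42 and 10.99 in H1650 and H1975. A second probe set of ZNF83 had line means of 0.59 for A549, 6.03 for H460, 9.54 for H1650 and 9.09 for H1975, and one of ZNF320 had 1.96, 6.04, 8.24 and 10.28. Their order of lines was kept but for H1650 and H1975 in ZNF83.

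In H460 the low genes were ZNF22 and ZNF331. ZNF22 had signals of 2.72 and 4.50 in SP and MP of H460 and between 9.73 and 10.50 elsewhere. The difference with the floor of 32 was -5.06, again a bound that makes both signals of the line equal. With A549, H1650 or H1975 left out, the mean of ZNF22 was under 8 (7.98, 7.97 and 7.785). It had to be high in these lines to be kept, so its difference in H460 is a description. Its second probe set gave line means of 3.74 in H460 and 8.14 to 8.54 in the others. ZNF331, an imprinted KRAB gene, had 4.22 and 5.09 in H460, 8.95 and 7.87 in A549, 8.24 and 8.31 in H1650, and 12.52 and 11.05 in H1975. With the floor its difference in H460 was -4.44, while the arrays of A549 and H1650 overlapped. Its mean over the lines other than H1975 was 7.11, so it was kept only through H1975. Its level there, and the difference in H460 that draws on it, are a description. ZNF362 was lower in H460 by a difference of -2.71 (SE 0.13), and its second probe set gave -1.17 and did not pass (limma adjusted p = 0.0543). The genes highest in H460 against the others were ZNF503, ZNF565 and ZNF232, with differences of 2.46, 1.59 and 1.22.

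**Figure D4:**
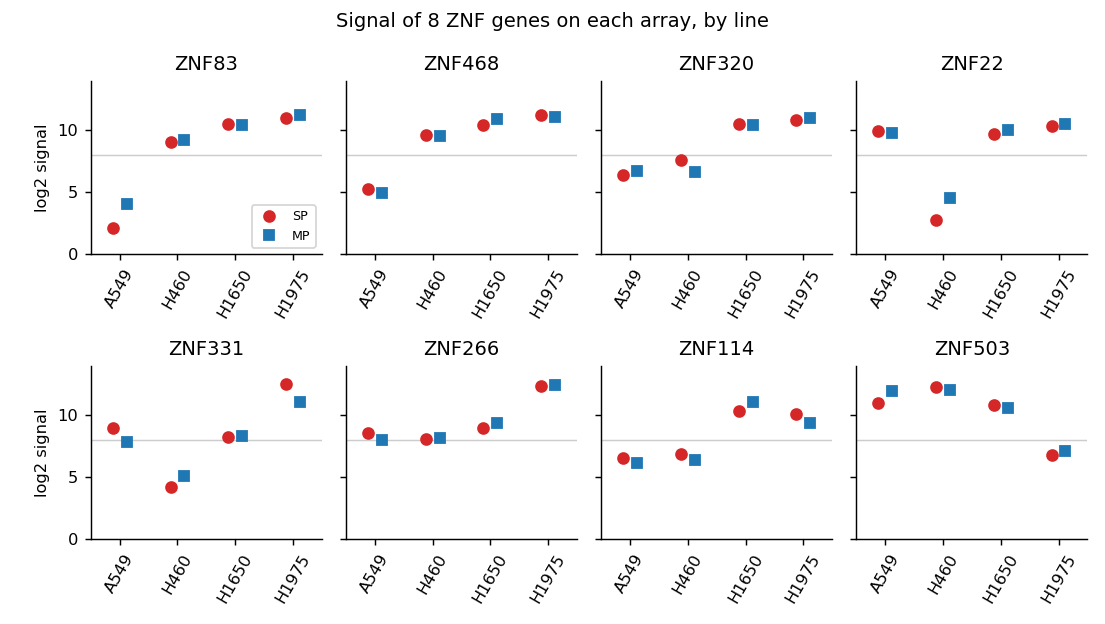
Log2 signal (vertical axis, from 0) of 8 ZNF genes on the SP (red circles) and MP (blue squares) array of each line, with the selection limit of 8 as a grey line. ZNF83 and ZNF468 are low in A549, ZNF22 and ZNF331 in H460, ZNF320 and ZNF114 in both, and ZNF503 in H1975, where ZNF266 and ZNF331 are highest.

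H1975 held the highest levels of ZNF266 and the lowest of ZNF503. ZNF266 had signals of 12.39 and 12.42 in H1975 and between 7.96 and 9.36 on the other 6 arrays (difference 3.90, SE 0.19, limma adjusted p = 1e-05). ZNF503, a developmental corepressor gene, had 6.76 and 7.11 in H1975 and between 10.56 and 12.30 elsewhere (difference -4.49, SE 0.24, limma adjusted p = 1.36e-05). Its second probe set had a mean of only 3.65 and gave -0.72, which did not pass (limma adjusted p = 0.336). ZNF704 was low in H1975 (-2.66), and ZNF618 was low in H1975 (-1.84) and high in A549 (1.57). In H1650 the highest against the others was ZNF114, with signals of 10.30 and 11.09 there, 10.10 and 9.36 in H1975 and between 6.11 and 6.87 in A549 and H460. ZNF114 and ZNF704 had means of 7.56 and 7.69 over the lines other than H1650 and had to be high in H1650 to be kept. ZNF114 also had to be high in H1975 (mean of 7.88 without it), and ZNF704 in A549 (7.995 without it). Their levels in these lines, and the difference of ZNF704 in H1975, are a description. The lowest in H1650 were ZNF57 (-1.999), ZNF182 (-1.69) and ZNF195 (-1.64). With H1975 left out, the means of ZNF57 and ZNF182 were under 8 (7.93 and 7.87). Both had to be high in H1975 to be kept, so their differences in H1650, which draw on it, are a description.

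At the other end, ZNF740 was the steadiest gene, with an SD of 0.0958 over the 8 arrays and signals between 9.30 and 9.59. It was followed by ZNF212, ZNF444, ZNF687 and ZNF721.

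The members on chromosome 19 were the more uneven between lines. At the adjusted threshold 43 of the 67 (64.2%) were higher in H1975, against 32 of the 107 on other chromosomes (29.9%), and 34 were lower in A549, against 23. The 689 other genes tested on chromosome 19 leaned the same way in H1975 and H460. Of these, 42.4% were higher in H1975, against 28.1% of all genes tested, and 42.4% were lower in H460, against 26.8% of all genes and 35 of the 67 members (52.2%). In A549, 23.9% of these other genes were lower, against 50.7% of the members on the chromosome. The difference between the members and their neighbours on the chromosome was not tested. Of the 67 members, 13 were among those kept only through H1975. Of the 67, H1975 had the highest level of 44 and H1650 of 14, and A549 and H460 each had the lowest of 29. Their median levels were 8.47 for A549, 8.67 for H460, 9.24 for H1650 and 9.98 for H1975. All 4 arrays of the EGFR-mutant lines H1650 and H1975 lay above all 4 of A549 and H460, both K-Ras mutant, for 40 of the 174 ZNF genes (23.0%; all genes tested, 13.6%), and below them for 12 (6.90%; all genes, 12%). On chromosome 19 this was 27 of 67 above (40.3%) and 0 below, and on the other chromosomes 13 of 107 above and 12 below. Of the other genes tested on the chromosome 119 of 689 were above (17.3%) and 25 below (3.63%). Some members counted above had to be high in H1650 or H1975 to be kept. On chromosome 19 these were ZNF83, ZNF114, ZNF304, ZNF426 and ZNF665, and elsewhere ZNF445, ZNF467 and ZNF697. ZNF500, counted below, had to be high in A549 and H460. The counts of members are therefore a description. With a pair of lines per mutation, the mutation and other properties of these lines cannot be told apart.

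**Figure D5:**
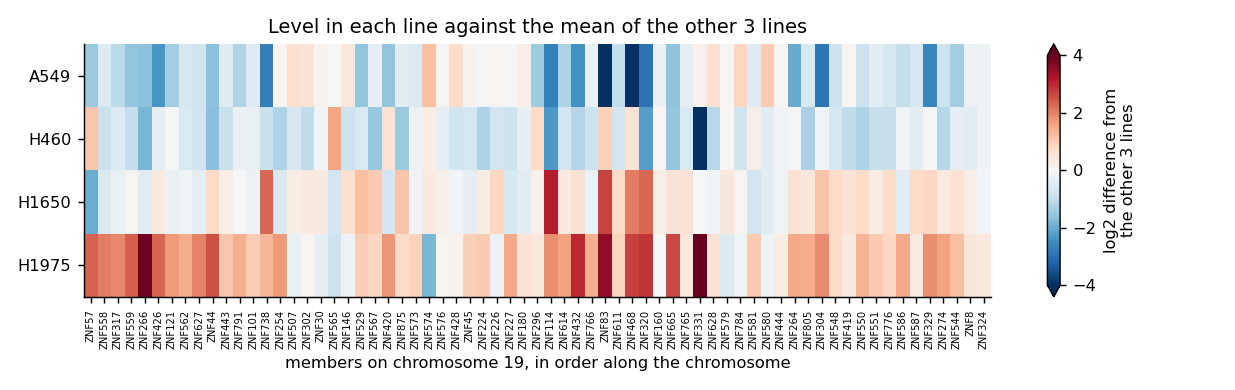
Log2 level of each line minus the mean of the other 3 lines (colour, red above and blue below 0, capped at 4 on either side) for the 67 members on chromosome 19 in their order along the chromosome. The row of H1975 is red over most of its length, with a median of 1.05, and the rows of A549 and H460 are mostly blue, with medians of -0.57 and -0.71.

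Neighbouring members were also described together. Runs were taken as 5 or more members with at most 10 other protein-coding genes between one and the next, a rule set after the values were seen. Among all genes tested, 28.1% were higher in H1975 and 25.1% in H1650. In A549 22.4% of them were higher and 21.3% lower, and in H460 26.8% were lower. The small counts in a run were not tested against these shares. In the run of 7 from ZNF558 to ZNF562, which holds ZNF317, ZNF559, ZNF266, ZNF426 and ZNF121, all 7 were lower in A549 (median -1.40) and all 7 higher in H1975 (median 2.03) at the adjusted threshold. In the run of 11 from ZNF614 to ZNF331, 9 were higher in H1975 (median 2.66), 7 lower in A549 (median -1.22) and 8 lower in H460 (median -0.72). This run also had 1 member higher in H460 and 4 higher in H1650. The run of 15 from ZNF264 to ZNF324 had 11 higher in H1975 (median 1.20), 8 higher in H1650 (median 0.57), 10 lower in A549 (median -0.82) and 8 lower in H460 (median -0.46). The 7 from ZNF565 to ZNF573 had 3 higher in H1975, and 1 higher and 2 lower in each of A549 and H460. In H1650 this run had 2 higher and 1 lower. The 7 from ZNF576 to ZNF180 had 3 higher in H1975 and 5 lower in H460, with 1 higher in A549 and 1 higher in H1650. The run of 5 from ZNF628 to ZNF580 differed, with 3 higher and 1 lower in A549. It had 2 higher and 1 lower in H1975 (median -0.17), and 2 lower in H460. Some members of these runs were kept only through H1975 and had to be high there. They were ZNF426, ZNF83, ZNF331, ZNF665, ZNF264, ZNF304, ZNF551, ZNF586, ZNF420 and ZNF628. Likewise ZNF579, ZNF628 and ZNF784 were kept only through A549, and ZNF304 also only through H1650. The counts of higher members in these lines are therefore a description. Outside chromosome 19 there were 2 runs. The run of 5 on chromosome 12 from ZNF605 to ZNF268 had 3 lower in A549 (median -0.87) and 3 higher in H1975 (median 0.75), and the run of 6 on chromosome 7 from ZNF398 to ZNF467 had none called in A549 or H1975.

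In the run from ZNF614 to ZNF331, 4 genes had similar upstream windows and unequal differences in A549. ZNF83 and ZNF468, at 3.08 and 5.11 in A549, have the upstream windows printed above next to those of ZNF611 and ZNF765. ZNF611 had signals of 8.94 and 8.81 in A549 and between 8.998 and 10.34 elsewhere, so that A549 lay just below the other lines (difference -0.97, SE 0.13, limma adjusted p = 0.000833). ZNF765 had 10.94 and 10.13 in A549 and between 10.01 and 11.42 elsewhere, and A549 overlapped them (difference -0.37, SE 0.21, limma adjusted p = 0.195). The windows of ZNF611 and ZNF765 were 77.7% and 82.3% identical to that of ZNF83. The probe sets that read ZNF83 (marked s), ZNF611 (marked x) and ZNF320 (marked x) can match related genes. The level of ZNF611 in A549 may therefore include signal from related genes, which was not tested. A second probe set of ZNF611, marked s, was dim, with a mean signal of 5.87. Its line means were lowest for A549 (4.84), just under H460 (5.07), while H1650 had 6.30 and H1975 had 7.27.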

How the data were processed

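Total RNA of sorted SP and MP cells was labelled and hybridised by the authors to 1 array per population and line. The authors deposited log2 MAS5 signals, for which the submitters' processing notes name GCOS 1.4. The 2% trimmed mean of the linear signal was 500.1 on each array, and the median log2 signal lay between 5.92 and 6.29. The sources used here give neither detection calls nor scan dates. The number of arrays limits the precision.

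Gene names came from the platform annotation, in which 41091 of 54675 had 1 gene symbol, 1801 several and 11721 none, and 62 were controls. All 174 members matched a RefSeq gene identifier, and 0 were renamed. The brightest probe set stood for each gene, and 12312 of 19775 genes reached the median signal of 6.00 and were tested by lmFit and eBayes, with a trend, of limma 3.58.1 under R 4.3.3. SP was compared with MP with the cell line as a block, over 4 lines and without H1650. H1650 was set against the other lines by an interaction, and levels between lines were fitted with population as a term. Adjusted p-values are over all genes tested. The arrays are paired by line. As a check, the deviations of SP and MP from the means of their populations had correlations of 0.887 to 0.940 within a line, and no SP array was closer to the MP array of another line.

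The rule for named genes took the members that the study prints beside its heat map, the 8 higher and 8 lower members of smallest p without H1650, the 3 highest and 3 lowest members of each line past the threshold, the members of highest mean, smallest SD and extreme ratio, and those at the limit of selection. ZNF420, ZNF611, ZNF765, the members with the repeated upstream stretch and the runs were chosen after their values were seen. The members and lists were chosen with earlier results of these data known. Alternatives were a floor (32) and a pseudocount (16) for the linear signal, scaling to the same median or by quantiles, the second brightest probe set, no trend, other filters, every probe set, no block, the labels of H1650 exchanged, and each array or line left out. Protein sequences were not used here, and promoters were taken from RefSeq (GRCh38.p14, 151 of 174 members matched, first listed start).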

Additional observations from a re-analysis of the deposited data

Results flagged for a closer look

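Of 21 named ZNF genes whose SP over MP log2 ratio was checked for a line far from the other 3, the ratio of the gap to the whole range passed Dixon's critical value for ZNF140 (0.857), ZNF394 (0.856) and ZNF83 (0.852). Chance flags about 1 in 20 such groups where genes are picked without regard to their ratios. For ZNF140 and ZNF394 the line that stood apart was H1650, and for ZNF83 it was A549, where both signals were low. ZNF140 and ZNF394 were named for a small p without H1650, which favours close ratios in the other 3 lines. ZNF83 was named for its low ratio in A549, so the rate of 1 in 20 does not hold for these genes. The SP effect in H1650 differed from that in the other lines by the limma interaction for ZNF92 (-2.63), ZNF394 (-2.05) and ZNF267 (-2.76). This contrast was chosen with the direction of H1650 known.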

How the results depend on the processing

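Directions held in most settings. The median ratio of the ZNF genes kept its sign in each line under the floor, the pseudocount, both scalings and the second probe set. Scaling to the same median moved the median ratio of all genes tested to -0.15 in A549 and 0.14 in H1975, and that of the ZNF genes to 0.17 and 0.27. Without H1650, 3 ZNF genes passed as reported (25 genes in all), 5 with the floor (64 in all), 8 with the pseudocount (103), 17 with median scaling (179), 7 over genes with a mean of at least 8 (86), 1 with the second probe set (19), 0 with no trend and 0 with no replicate block (limma, 1434 and 91 genes in all with an unadjusted p under 0.05). The same 3 genes were among those that passed with the floor, the pseudocount, median scaling and the higher filter. Leaving out each line gave 0 (without H460) to 6 (without H1975), and 1 without A549. Over 4 lines 13 passed with the H1650 labels exchanged, and 0 to 3 with a line left out, the 3 without H1650. The interaction of H1650, with 3 as reported, had 10 with median scaling, 1 with the second probe set and 0 with quantile normalization, with no trend and with no filter (limma, 1571, 1344 and 1879 genes in all with an unadjusted p under 0.05), and 0 (without A549 or H460) to 5 (without H1975) with a line left out. Of levels, 83 ZNF genes called in A549 became 40 to 102 and 78 in H460 became 38 to 95 when an array was left out, the lowest without the MP array of A549 and without either array of H460. Members changed at least 2-fold became 18 in place of 28 in A549 with median scaling, and with the second probe set 25 in place of 11 in H460 and 11 in place of 4 in H1650. The second probe set reversed ZNF394 (-0.19), ZNF627 (-0.10), ZNF226 (0.50) and ZNF83 (1.401) without H1650, and ZNF503 in A549 (-0.35). The causes were not tested. Of the other comparisons of single named genes between settings, 200 of SP with MP and 426 of lines kept their direction and side of the threshold, while 18 newly passed and 12 no longer passed in the former and 5 no longer passed in the latter. The number of arrays limits each of these counts.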
